A study of Mus musculus with 4 samples.

Results

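Tubule Sertoli cells were taken as the barcodes with 2000 to 4500 detected genes in which at least 5 of 10 Sertoli genes (*Inha*, *Cst9*, *Cst12*, *Defb19*, *Defb36*, *Wfdc10*, *Tsx*, *Aard*, *Rhox8* and *Amhr2*) had a UMI. Barcodes with more than 1 UMI of the germ cell genes *Ddx4* and *Dazl* together were left out, as were Sertoli cells of the SV, recognised by 2 or more UMIs of each of *Wfdc18*, *Fabp3* and *Tesc*. The rule found 2553 cells among 46001 barcodes. They came from scRNA-seq of the dissected region that holds the RT and the neighbouring ST, in C57BL/6 mice at P14, and each of the 4 libraries pooled 3 pups. There were 2 control and 2 *Sox17*-cKO libraries, in which the floxed *Sox17* alleles (Sox17flox/flox) are recombined by a Cre recombinase under *Nr5a1* (SF1) sequences. The sample labels give the control genotype as SF1Cre, whereas the methods describe controls with floxed alleles and no Cre, so whether the control pups carried Cre is not settled here. *Nr5a1* is used by somatic cells of the gonad, Sertoli cells included, so the Cre was not restricted to the RT.

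Sertoli cells are the somatic cells of the seminiferous epithelium. They hold the germ cells, close the blood-testis barrier with tight junctions, feed germ cells with lactate, and answer FSH and androgen. In the mouse their divisions cease and the barrier forms during the juvenile weeks, when the first wave of germ cells passes through meiosis. At the proximal end of each tubule modified Sertoli cells form the SV next to the RT.

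The 10 genes that chose the cells encode an inhibin subunit (*Inha*), 2 cystatins (*Cst9* and *Cst12*), 2 beta-defensins (*Defb19* and *Defb36*), a whey acidic protein domain protein (*Wfdc10*), an X-linked homeobox protein (*Rhox8*), the type II receptor of anti-Müllerian hormone (*Amhr2*), and *Tsx* and *Aard*, which are known for testis expression. In GENCODE vM21 (GRCm38), 5 of the 10 lie on chromosome 2, with *Cst12* at chr2:148789361-148793546 and *Cst9* at chr2:148835147-148838738 as near neighbours. *Amhr2* lies at chr15:102445367-102454633 and *Wfdc10* at chr2:164656046-164657368, both on the plus strand. RefSeq (GRCm38.p6) gave a start site for 7 of the 10. The 250 bases before 3 of these starts are printed here, because they cover a receptor gene, a defence protein gene and a cystatin gene of the group. Capitals mark AAGGTCA, a motif bound by NR5A1, in *Amhr2* (chr15:102445117-102445366, plus strand), and the reverse complement of the GATA motif AGATAA in *Wfdc10* (chr2:164655796-164656045, plus strand). *Cst9* (chr2:148834897-148835146, plus strand) held none of the 5 motifs searched.
Amhr2: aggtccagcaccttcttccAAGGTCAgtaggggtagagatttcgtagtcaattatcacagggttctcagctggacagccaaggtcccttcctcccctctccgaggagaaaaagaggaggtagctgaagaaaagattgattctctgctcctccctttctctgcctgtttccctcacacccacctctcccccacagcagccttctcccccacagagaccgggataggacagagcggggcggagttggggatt
Wfdc10: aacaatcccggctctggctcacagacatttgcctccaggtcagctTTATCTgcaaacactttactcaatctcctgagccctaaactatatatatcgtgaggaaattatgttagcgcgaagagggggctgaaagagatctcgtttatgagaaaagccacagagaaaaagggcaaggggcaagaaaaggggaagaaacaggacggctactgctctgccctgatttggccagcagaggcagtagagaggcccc
Cst9: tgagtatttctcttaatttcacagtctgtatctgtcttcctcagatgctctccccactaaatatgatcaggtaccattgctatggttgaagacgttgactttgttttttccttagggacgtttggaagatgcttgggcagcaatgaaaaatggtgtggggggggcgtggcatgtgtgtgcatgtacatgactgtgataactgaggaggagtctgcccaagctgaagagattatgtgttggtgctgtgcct
Searched on both strands, AAGGTCA was in 1 of the 7 promoters and in 4.08% of 32851 promoters of the same length, and AGATAA was in 1 of 7 and in 9.99%. A SOX motif (ACAATG, 10.7% of all), TGACG (17.8%) and the E-box CACGTG (6.02%) were in 0 of the 7. For *Inha* the stretch searched (chr1:75507359-75507608, plus strand) lies inside the GENCODE gene (chr1:75507077-75510366). The bases before that earlier start were not searched, so these counts say nothing of them.

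The controls numbered 1 and 2 gave 765 and 487 of the cells, and *Sox17*-cKO 1 and 2 gave 519 and 782. Where values of all libraries follow each other without names, they stand in this order. Summed over these cells the libraries held 4252244 to 6778309 UMIs, and levels are UMIs per 1000000 of that sum (CPM), so that 1 UMI is 0.148 to 0.235 CPM. The median cell held 7043 to 9771 UMIs. Count tables of control 1 and *Sox17*-cKO 1 carry Cell Ranger 6.0.2 and those of control 2 and *Sox17*-cKO 2 carry 6.1.2, and these pairs are called the first and second library set. Of all barcodes, 20 to 43 were shared by any 2 libraries, and 1 among the tubule Sertoli cells.

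The label held for most of these cells but not for all. By the number of Sertoli genes detected, 1929 of 2553 (75.6%) had 9 or 10 of the 10, 100 had 8, and 524 (20.5%) had 5 to 7. In the cells with 9 or 10, the 10 genes summed to 23072, 21755, 24607 and 21869 CPM. Those with 5 to 7 summed to 2036, 1563, 1616 and 1805 CPM. The grouping by these genes sets that difference, which is given as a description. The rule did not use interstitial cell genes (*Col1a1*, *Col1a2*, *Col3a1*, *Dcn*, *Lum*, *Pdgfra*, *Acta2* and *Myh11*). They summed to 501 to 2948 CPM in the cells with 9 or 10 Sertoli genes, to 21830 to 31558 CPM in those with 5 to 7, and to 36026 to 47599 CPM in cells of the same depth with 0 to 3. In the 100 cells with 8 they summed to 4750, 31003, 24338 and 16087 CPM. Genes of macrophages, 7 in all, summed to 157 to 957 CPM in the cells with 5 to 7 and to 0.988 to 9.38 CPM in those with 9 or 10. The share of cells with 5 to 7 differed between libraries, at 13.1%, 23.2%, 39.3% and 13.7% of the rule's cells. With these levels of interstitial and macrophage genes, cells with 5 to 7 Sertoli genes are not called Sertoli cells below, and the identity of those with 8 is not settled. Results are given for all 2553 cells and for the 1929 with 9 or 10 genes, a subset chosen after the data were seen.

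**Figure D1:**
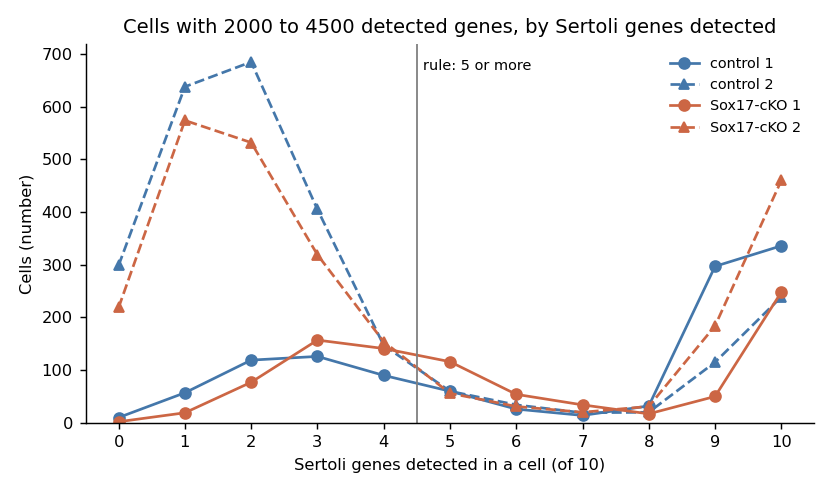
Number of cells (vertical axis) by how many of the 10 Sertoli genes had a UMI (horizontal axis), among barcodes with 2000 to 4500 detected genes that met the germ cell and SV limits, for control (blue) and *Sox17*-cKO (orange) libraries of the first (circles, solid) and second set (triangles, dashed). Each library has 1 peak at 9 or 10 genes and another at 1 to 3 genes, and the grey line marks the limit of 5 that the rule set between them.

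**Figure D2:**
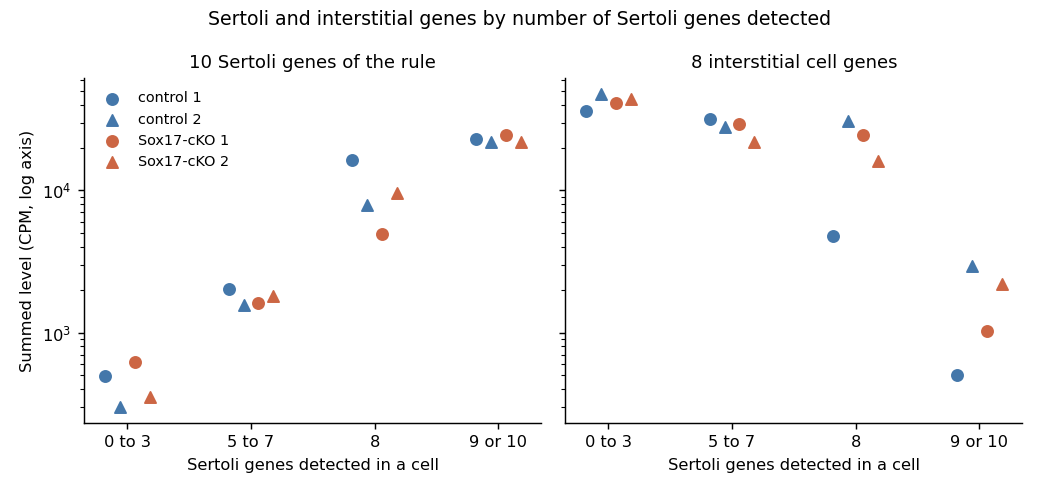
Summed level in CPM (log axis) of the 10 Sertoli genes (left) and of 8 interstitial cell genes (right) in cells grouped by the number of Sertoli genes detected, 1 point per library. Cells with 5 to 7 Sertoli genes sit near the cells with 0 to 3 for interstitial genes (21830 to 31558 CPM), and cells with 9 or 10 are lowest (501 to 2948 CPM).

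Values at the edges of the rule are given as a description. The 292 cells with exactly 5 Sertoli genes had a median of 4.04% mitochondrial UMIs and the 532 with 4, just outside, had 4.32%. The 146 cells in the lowest 100 detected genes that the rule kept had a median of 6.90% mitochondrial UMIs, and the 129 in the 100 just under 2000 had 9.69%. The 598 cells left out for exactly 2 UMIs of *Ddx4* and *Dazl* had a median of 10 Sertoli genes, equal to that of the 1107 cells kept with 1 UMI.

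Genes that the rule used, and *Clu*, were among the most abundant in the cells with 9 or 10 Sertoli genes. *Cst9* was at 3247, 3538, 4087 and 4183 CPM, and *Cst12* at 4361, 3838, 4102 and 3248 CPM. *Clu*, which encodes the secreted chaperone clusterin and was not used by the rule, was at 5145, 2930, 4467 and 3675 CPM, against a mean of 121 CPM in cells with 0 to 3 Sertoli genes. *Defb19* was at 5728 and 5791 CPM in the first library set and at 2930 and 3325 CPM in the second. *Wfdc10* was at 1113 and 969 CPM in the first set and at 2365 and 2686 CPM in the second. The rule used both genes, so these levels are a description with no test. Among genes other than mitochondrial and ribosomal protein genes, the 15 of highest mean level in these cells (3' UMI counts hold 1 count per captured molecule, so no length was divided out) included *Gm42418*, *Malat1*, *Tmsb4x*, *Chchd2* at 4935 ± 334 CPM (SD, n = 4 libraries), *Ctsl* at 3334 ± 527 CPM and *Sparc* at 2879 ± 657 CPM. *Sparc*, a matrix-binding secreted protein, was higher still in the cells with 0 to 3 Sertoli genes, at 7444 to 12686 CPM.

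Transcription factors of Sertoli identity were present in every library. *Sox9*, which directs Sertoli fate, was at 482, 323, 353 and 433 CPM, and with every cell thinned to 4000 UMIs it had a UMI in 66.3% to 81.96% of cells with 9 or 10 Sertoli genes and in 5.77% to 9.61% of cells with 0 to 3. Median depths before thinning were 7225 to 10212 and 6317 to 8324 UMIs. *Wt1* was at 342, 260, 285 and 309 CPM. *Nr0b1*, *Gata1*, *Gata4*, *Dmrt1*, *Sox8* and *Nr5a1* had means of 67.9 to 204 CPM, whereas *Tcf21*, known from interstitial cells, had 18.03 ± 12.9 CPM (SD, n = 4) and 487 CPM in cells with 0 to 3 Sertoli genes. *Gata4* parted these classes little. It had a UMI in 20.1% to 31.7% of thinned cells with 9 or 10 and in 16.1% to 24.5% of those with 0 to 3. The former was higher within each library, but the ranges overlapped. The *Sox9* and *Wt1* levels of the controls and the *Sox17*-cKO libraries overlapped.

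*Fshr*, the receptor of FSH, was at 15.02, 20.3, 7.04 and 8.31 CPM and had a UMI in 2.83% to 6.65% of thinned cells against at most 0.061% of cells with 0 to 3 Sertoli genes. *Rhox5*, an androgen-responsive homeobox gene of Sertoli cells, was at 233 ± 56.1 CPM (SD, n = 4) against 4.91 CPM. *Inhbb*, an inhibin and activin subunit, was at 170 ± 18.7 CPM, and *Inhba* at 1.49 ± 0.821 CPM. *Amh*, the hormone of the immature Sertoli cell, was at 65.6, 24.0, 33.2 and 22.6 CPM.

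Genes for signals to germ and other cells were led by 2 that were far above the cells with 0 to 3 Sertoli genes. *Dhh*, a hedgehog ligand for Leydig and peritubular cells, was at 143, 190, 127 and 255 CPM, against 3.60 CPM there. *Kitl*, the ligand of KIT on spermatogonia and Leydig cells, was at 397, 266, 290.0 and 381 CPM, against 65.2 CPM. *Gdnf*, which maintains spermatogonial stem cells, was at 6.47 ± 1.94 CPM here and at 6.74 CPM in the cells with 0 to 3, and its share of thinned cells with a UMI, 2.27% to 3.64%, overlapped the 2.24% to 3.54% there. *Cxcl12*, *Fgf2*, *Bmp4* and *Igf1* were lower in the cells with 9 or 10 Sertoli genes than in those with 0 to 3, with means of 3.30 against 79.4, 2.89 against 80.4, 3.15 against 92.2 and 35.3 against 1006 CPM.

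The rule did not use the barrier genes. *Cldn11*, the claudin of Sertoli tight junctions, was at 497, 734, 513 and 754 CPM, and it had a UMI in 80.6% to 90.1% of thinned cells against 16.3% to 27.95% of cells with 0 to 3 Sertoli genes. Cingulin (*Cgn*) was at 218 ± 30.8 CPM against 5.32, espin (*Espn*), of the ectoplasmic specialization, at 272 ± 71.4 CPM, N-cadherin (*Cdh2*) at 142 ± 26.4 CPM against 8.65, and occludin (*Ocln*) at 65.0 ± 7.95 CPM against 1.70 (mean ± SD, n = 4). *Cldn3* was low, at 11.9, 6.13, 28.5 and 2.89 CPM, and *Cldn5* had 0.0, 9.48, 0.391 and 0.0 CPM. *Cldn5* and *Itgb1* were lower here than in the cells with 0 to 3 Sertoli genes, with means of 2.47 against 17.8 and 208 against 590 CPM. Of 16 genes of the barrier list tested between genotypes, 0 passed the adjusted test, beside 0.0% of all genes.

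For metabolism, the lactate dehydrogenase subunit *Ldhb* stood at 2086 ± 234 CPM and *Ldha* at 63.1 ± 6.70 CPM, while cells with 0 to 3 Sertoli genes held 288 and 176 CPM. Retinoic acid, made by Sertoli cells, acts on entry into meiosis. Its synthesis gene *Aldh1a1* was at 446, 538, 549 and 502 CPM, and *Aldh1a2* at 74.5, 98.4, 67.6 and 62.5 CPM against 3.12 CPM in cells with 0 to 3. *Stra6*, a retinol uptake gene, was at 59.9 ± 4.33 CPM against 1.60. The whole list of 20 retinoid genes went the other way, at 1072 to 1307 CPM in sum against 1535 to 1819 CPM. For clearance of germ cell debris, *Tyro3* was at 108 ± 21.4 CPM and *Scarb1* at 141 ± 8.72 CPM. The list of 12 clearance genes summed to 1424 to 1654 CPM, lower in every library than the 1730 to 2054 CPM of cells with 0 to 3. *Mki67*, a gene of dividing cells, was at 8.58 ± 2.43 CPM, with a UMI in 2.27% to 4.76% of thinned cells against 3.90% to 10.3% of cells with 0 to 3 Sertoli genes. *Top2a*, also of dividing cells, had a UMI in 7.08% to 17.0% against 9.23% to 18.9%. The ranges overlapped for both genes.

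The genotype comparison asked whether loss of *Sox17* changes Sertoli cells of the tubules beyond the SV. *Sox17* itself was at 7.16 and 13.9 CPM in the controls against 1.88 and 0.295 CPM after deletion, with no overlap, and the log2 difference was -3.47 ± 0.81 (SE) with an unadjusted p of 0.0041 and an adjusted p of 0.9998 in edgeR's quasi-likelihood test. Most of these UMIs did not come from the cells with 9 or 10 Sertoli genes. There *Sox17* had 1, 24, 1 and 1 UMIs, too few to enter the test, and control 2 held nearly all of them. Among the cells with 5 to 7 it was at 35.1 and 37.9 CPM in the controls and at 2.53 and 1.016 CPM in the *Sox17*-cKO libraries. These are 3' tags, and the exons removed from the floxed allele are not given in the sources used here, so the level is a limited check of the labels.

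Between *Sox17*-cKO and control, 0 of 12519 genes (0.0%) passed edgeR's quasi-likelihood test (Benjamini-Hochberg adjusted p under 0.05) over all 2553 cells. An unadjusted p under 0.05 was reached by 43 genes, and DESeq2 called 0. For the cells with 9 or 10 Sertoli genes the test called 0 of 11383 (0.0%), 89 genes reached that unadjusted p, and DESeq2 again called 0. On simulated libraries of these depths the test recovered 11% of genes changed 2-fold and 70% of genes changed 4-fold over all cells, and 7% and 69% in the subset, so changes of 2-fold were mostly beyond the reach of this model, which has no term for the library set. With the set as a term 0 genes passed again, and 67 and 349 reached an unadjusted p of 0.05. Each library is a pool of 3 pups, and p-values measure the spread between these pools. The study's reporting summary describes its scRNA-seq replicates as independent and biological.

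The genes with the smallest unadjusted p whose groups did not overlap are given as values. *Fshr* stood at 15.02 and 20.3 CPM in the controls against 7.04 and 8.31 CPM in *Sox17*-cKO (log2 difference -1.29 ± 0.34 SE, unadjusted p = 0.0075 and adjusted p = 0.99996 in edgeR's quasi-likelihood test, cells with 9 or 10). *Ahcy*, which hydrolyses S-adenosylhomocysteine, was at 14.03 and 22.6 against 7.82 and 7.41 CPM, and *Ndrg1* at 36.4 and 33.4 against 21.1 and 20.4 CPM. *Wfdc18*, 1 of the 3 genes that mark the SV, also ranked among these genes, but the rule used it, so nothing is read from that rank and its levels are a description. It was at 13.2 and 11.1 CPM in the controls against 33.2 and 38.3 CPM in *Sox17*-cKO. The rule removed cells with 2 or more UMIs of *Wfdc18* only where *Fabp3* and *Tesc* were as high. *Dkk3*, a secreted protein related to WNT inhibitors, was at 2.77 and 4.74 against 10.9 and 13.6 CPM. The Leydig cell enzymes *Cyp11a1* (0.395 and 0.557 against 16.02 and 8.31 CPM) and *Cyp17a1* (0.395 and 1.95 against 5.47 and 11.4 CPM) were in the same group, and *Hsd3b1* was at 0 UMIs in both controls, which allows up to 0.593 and 0.836 CPM, and at 36.7 and 4.52 CPM after deletion. The summed level of the 5 Leydig genes was 19.0, 23.4, 77.0 and 46.8 CPM, and its part in other differences was not tested. Over all 2553 cells, the pericyte gene *Rgs5* (39.5 and 24.6 against 8.23 and 6.79 CPM), *BC048679* (5.16 and 4.84 against 0.0 and 0.148 CPM) and *Slpi* (8.33 and 47.6 CPM against 0 UMIs in both, which allows up to 0.706 and 0.443 CPM) were lower in both *Sox17*-cKO libraries. In the cells with 9 or 10 Sertoli genes the UMIs of *Slpi* were all in control 2. Over all cells *Chrdl2*, *Cd52*, *Col9a3* and *Mest* stood higher in both *Sox17*-cKO libraries.

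**Figure D3:**
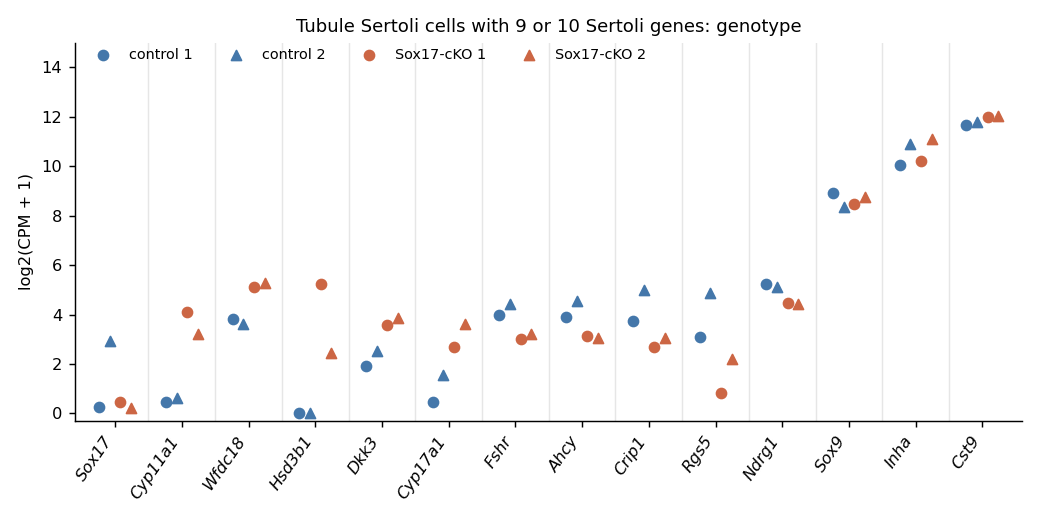
Level in log2(CPM + 1) of *Sox17*, of the 10 genes with the smallest unadjusted p between genotypes whose groups do not overlap (*Wfdc18*, which the rule used, among them), and of *Sox9*, *Inha* and *Cst9*, in cells with 9 or 10 Sertoli genes; each point is 1 library, blue for control and orange for *Sox17*-cKO. *Fshr* stands at 15.02 and 20.3 CPM in blue and at 7.04 and 8.31 CPM in orange, and no gene passed the adjusted test. The libraries of *Inha*, which the rule used, part by set instead of genotype, given as a description.

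None of the gene lists that follow held a gene past the adjusted test between genotypes. With 9 or 10 Sertoli genes required, the median log2 difference was -0.04 over 10 identity factors, -0.07 over 16 hormone genes, -0.27 over 12 signal genes, -0.06 over 16 retinoid genes, -0.03 over 19 glycolysis genes, -0.05 over 16 junction genes, -0.05 over 12 clearance genes, 0.08 over 15 genes of secreted proteins, 0.04 over 16 division genes, -0.08 over 8 Notch genes and 0.05 over 17 receptors of growth factors known from the RT, beside -0.01 over all genes tested. The 13 mitochondrial genes had a median of -0.39, with *mt-Nd3* at 3484 and 3744 against 2066 and 2447 CPM, and the median share of mitochondrial UMIs was 13.1% and 12.99% in the controls against 11.4% and 6.57% in *Sox17*-cKO. That share did not overlap, and its exact 2-sided permutation p was 0.3333, the smallest that 2 libraries against 2 allow. The 16 early stress genes had a median of -0.24.

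Cells of the rule, those with 5 to 7 Sertoli genes included, made up 19.4% of the barcodes with 2000 to 4500 genes of the first control, 12.1% of the second, and 16.8% and 19.0% of the *Sox17*-cKO libraries, with exact (Clopper-Pearson) 95% intervals of 18.2 to 20.7, 11.1 to 13.2, 15.5 to 18.1 and 17.8 to 20.2, which cover counting error only. The genotypes overlapped, the difference was 2.08 percentage points, and the exact 2-sided permutation p was 1.0. With 9 or 10 Sertoli genes required the shares were 16.1%, 8.81%, 9.63% and 15.6%. Among barcodes below 10% mitochondrial UMIs, cells of the rule made up 7.53%, 7.31%, 12.6% and 15.03%. There the genotypes did not overlap, the difference was 6.39 percentage points, and the exact 2-sided permutation p was again 0.3333. The limit itself kept unequal parts of the rule's cells, 24.2%, 49.3%, 59.3% and 63.7%. Of the 185, 240, 308 and 498 cells kept, 88, 118, 103 and 379 had 9 or 10 Sertoli genes. The barcodes below the limit numbered 2457, 3282, 2446 and 3314. Cells with 9 or 10 were thus the smaller part of those kept in both controls and in *Sox17*-cKO 1. Only in *Sox17*-cKO 2 were they the larger part. Most of those kept in *Sox17*-cKO 1 are not called Sertoli cells here, so the difference is not one of Sertoli cells alone.

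What the test between library sets called depended on the cells taken. Comparing the second with the first set, with genotype in the model, edgeR's quasi-likelihood test (Benjamini-Hochberg adjusted) called 0 of 12519 genes (0.0%) over all 2553 cells, although 1245 genes reached an unadjusted p of 0.05 and DESeq2 called 27. Among cells with 9 or 10 Sertoli genes it called 658 of 11383 (5.78%), 414 higher (3.64%) and 244 lower (2.14%) in the second set, and DESeq2 called 247. On simulated libraries this test recovered 56% of genes changed 2-fold and 94% of genes changed 4-fold in the subset, more than the genotype test did, so the counts of the 2 tests are not compared. With cells of 10% or more mitochondrial UMIs left out it called 40, all of them among the 658. The labels number the second library of each genotype, and what a set shares beyond that number and the Cell Ranger version is not given.

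Within these cells glycolysis genes differed between sets. Of 19 glycolysis genes 5 rose and 0 fell, beside 3.64% and 2.14% of all genes. *Gapdh* went from 782 and 739 to 1664 and 1952 CPM, *Pkm* from 444 and 595 to 910 and 925 CPM, *Pgam1* from 504 and 521 to 866 and 875 CPM, and *Pfkl* and *Pgk1* also rose. Of the genes that chose the cells, whose levels are a description with no test, *Inha* stood at 1067 and 1179 CPM in control 1 and *Sox17*-cKO 1 and at 1889 and 2227 CPM in control 2 and *Sox17*-cKO 2. The thyroid hormone receptor gene *Thra* rose from 163 and 102 to 241 and 267 CPM, and *Amh* fell from 65.6 and 33.2 to 24.0 and 22.6 CPM (adjusted p = 0.04999 in edgeR's quasi-likelihood test). Of 82 ribosomal protein genes 1 rose and 20 fell, beside the 5.78% of all genes called. Stress genes rose in 2 cases (*Jund* and *Ier3*) and fell in 1 (*Hsp90aa1*) of 16. Of 13 mitochondrial genes 0 rose and 3 fell (*mt-Nd4l*, *mt-Nd6* and *mt-Atp8*), with a median log2 difference of -0.37. Signal genes rose in 3 cases of 12 (*Bmp4*, *Igf1* and *Tgfb2*) and receptors in 3 of 17 (*Tgfbr3*, *Pdgfra* and *Fzd2*), with 0 lower in either list, and 0 of 16 junction genes were called. These counts moved when cells over 5 UMIs of *Col1a1*, *Col1a2* and *Col3a1* were also left out, where 10.8% of all genes were called. There 0 of 13 receptors tested were called, and signal genes rose in 3 cases of 8 with 0 lower. Of 16 junction genes 3 were then higher and 1 lower.

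Interstitial and germ cell genes moved with the sets. Among the interstitial genes 6 of 8 rose, beside 3.64% of all genes. *Col1a1* was at 104 and 236 CPM in the first set and 778 and 629 CPM in the second, and *Acta2* at 139 and 193 against 735 and 572 CPM. *Cyp26b1*, a retinoic acid-degrading enzyme, was at 1.58 and 3.91 against 42.4 and 33.6 CPM in these cells and at a mean of 532 CPM in cells with 0 to 3 Sertoli genes, and *Tgfb2* at 3.75 and 4.69 against 34.8 and 17.5 CPM. Of 4 Leydig cell genes 1 was called lower, *Hsd3b1* (0.0 and 36.7 against 0.0 and 4.52 CPM), and 0 of 1 endothelial gene was called. Of the SV genes, the rule used *Wfdc18*, *Fabp3* and *Tesc*, and nothing is read from their test. The SV genes that it did not use (*Wnt4*, *Cyp26a1*, *Tnfrsf12a* and *Ccnd1*) were not called. Several germ cell genes went the other way, with 4 of 11 (*Sycp1*, *Stra8*, *Hormad1* and *Tex101*) called lower, beside 2.14% of all genes. The 11 hold *Ddx4* and *Dazl*, which the rule limited and which were not called, and nothing is read from their test. *Hormad1*, of the meiotic chromosome axis, was at 30.4 and 34.8 against 3.62 and 5.60 CPM, and *Stra8* at 23.1 and 26.6 against 6.41 and 8.49 CPM. The strongest calls downward, *Hist1h2aa*, *Syce3*, *Fabp9*, *Hist1h1a*, *Hormad1*, *Ly6k*, *Ldhc* and *Rpl39l*, hold genes known from germ cells (adjusted p from 0.0046 to 0.0074 in edgeR's quasi-likelihood test), and those upward were *Ifitm2*, *Tagln*, *Socs3*, *Cyp26b1*, *Igfbp4*, *Flna*, *Arf5* and *Acta2*. All 11 germ cell genes, *Ddx4* and *Dazl* included, summed to 640.5 and 787 CPM in the first set against 598 and 765 CPM in the second. *Uchl1*, the most abundant of the list, was at 315 and 430 against 496 and 573 CPM. The other 10 summed to 326 and 358 CPM against 103 and 192 CPM in the cells with 9 or 10 Sertoli genes, and to 262 and 338 against 87.2 and 195 CPM in cells with 0 to 3. In cells with 0 to 3 all 11 summed to 304 and 394 against 110 and 221 CPM, so *Uchl1* was far lower there. The source of the *Uchl1* UMIs in the cells with 9 or 10 was not tested. The part of cells with 0 to 3 Sertoli genes in the difference between sets was not tested. With cells over 5 UMIs of *Col1a1*, *Col1a2* and *Col3a1* also left out, 1824 cells remained and 1177 of 10883 genes (10.8%) were called, among them 531 of the 658 in the same direction (80.7% of the 658 and 45.1% of the 1177), *Gapdh* included. Of the 4 interstitial genes tested that this limit did not use, *Dcn* (2.01 and 2.43 against 11.001 and 7.84 CPM) and *Acta2* (57.6 and 133 against 152 and 175 CPM) were called higher, beside 6.06% of all genes, and *Pdgfra* and *Myh11* were not.

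**Figure D4:**
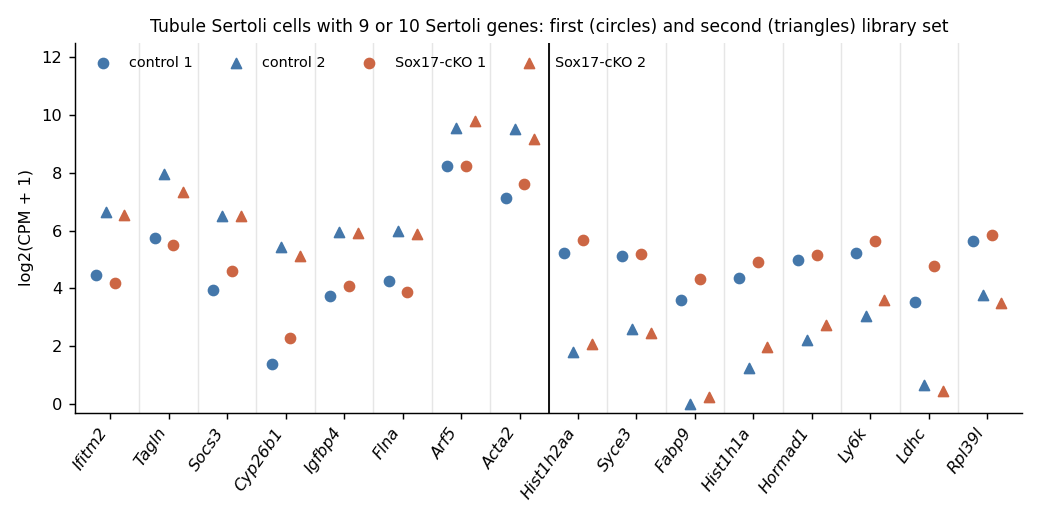
Level in log2(CPM + 1) of the 8 genes higher (left of the line) and the 8 lower (right) in the second library set with the smallest adjusted p among those whose libraries did not overlap between sets, in cells with 9 or 10 Sertoli genes; circles are the first set, triangles the second, blue control and orange *Sox17*-cKO. The choice of genes sets the gap between circles and triangles, and the plot shows its size, as for *Acta2* (139 and 193 against 735 and 572 CPM).

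Sertoli cells of another class, those of the SV, numbered 100 under the same limits (21, 22, 9 and 48 per library). The rule itself parted these classes, so their levels are a description with no test. The limit of 9 or 10 Sertoli genes was set here on tubule cells only, and all 100 SV cells were kept. Tubule cells were then lower in every library for *Clic5* (means 5.6 and 109 CPM), *Tagln2* (19.2 and 283), *Cyr61* (47.0 and 509), *Igfbp3* (15.4 and 199), *Pdgfa* (9.6 and 111) and *Adamts1* (12.9 and 164). They were higher for the gap junction gene *Gja1* (325, 203, 199 and 236 against 65.9, 46.6, 63.8 and 74.9 CPM), *Cdo1* (111 and 21.0), *Col4a3* (29.7 and 2.7) and *Gm9112* (223 and 28.6). The 10 leading genes in this direction also held *S100a6* (28.1 and 1.06), *Fhl2* (46.6 and 2.68) and the smooth muscle genes *Tagln* (126 and 28.3) and *Myh11* (29.1 and 1.61). *Tagln* had a mean of 3487 CPM and *Myh11* of 931 CPM in cells with 0 to 3 Sertoli genes, and the part of such cells in this difference was not tested. In all, 54 genes were at least 2-fold higher and 134 at least 2-fold lower in every library, among 6839 of at least 20 CPM on a scale with 5 CPM added. *Sox9* was at 583, 462, 575 and 505 CPM in the SV cells, not far from its tubule level.

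**Figure D5:**
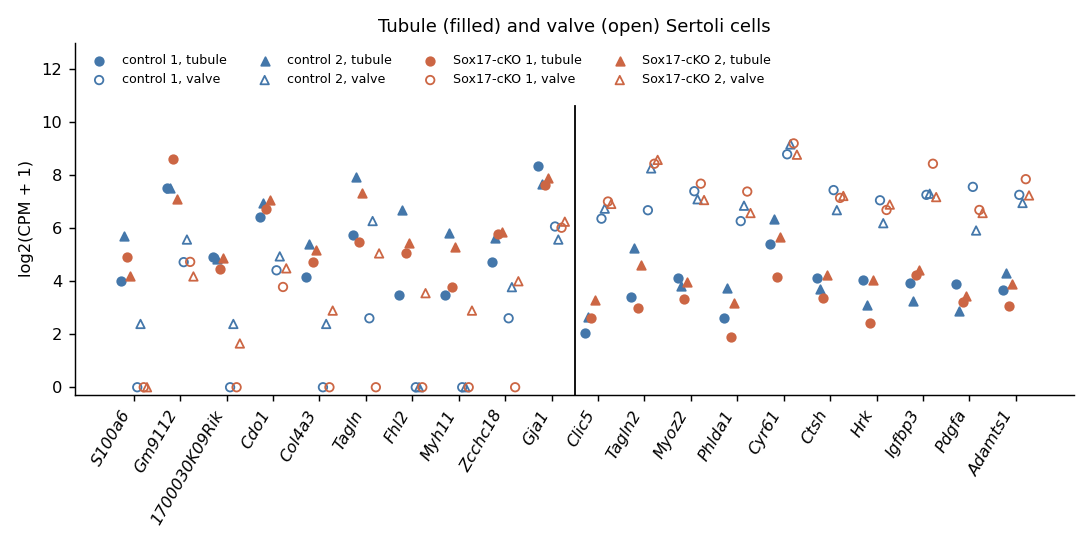
Level in log2(CPM + 1) in tubule Sertoli cells with 9 or 10 Sertoli genes (filled) and SV Sertoli cells (open) of the 10 genes with the largest excess (left of the line) and the largest deficit (right) in tubule cells in every library, 1 point per library. *Clic5* has means of 5.6 CPM in tubule and 109 CPM in SV cells and *Gja1* stands at 199 to 325 against 46.6 to 74.9 CPM; the SV points rest on 9 to 48 cells per library.

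Whether the genotype difference itself differed between tubule and SV cells was tested as an interaction. Over all cells 8 of 11597 genes (0.069%) passed edgeR's quasi-likelihood test (Benjamini-Hochberg adjusted), 2 higher (0.0172%) and 6 lower (0.0517%) in the tubule relative to the SV, 306 genes reached an unadjusted p of 0.05, and DESeq2 called 0. The 6 lower were interstitial matrix genes. *Dcn*, a matrix proteoglycan, was at 165, 485, 515 and 256 CPM in all cells of the rule, at 19.4, 97.0, 45.7 and 79.5 CPM in those with 9 or 10 Sertoli genes, and at 5.07, 4.23, 0.0 and 141 CPM in SV cells. The high SV value was that of *Sox17*-cKO 2, and the genotypes overlapped in both sets of tubule cells. Without that library the sign of all 6 reversed and none passed. With 9 or 10 Sertoli genes required of both classes, 16, 19, 9 and 36 SV cells remained. There 1 of 9937 genes (0.0101%) passed, *Snrpa1*, a splicing factor gene, and DESeq2 called 0. It was at 91.7, 65.8, 85.2 and 82.8 CPM in tubule cells with 9 or 10. In all 100 SV cells, more than that test used, it was at 40.6, 12.7, 140 and 98.5 CPM, and the value of control 2 was 3 UMIs. Over all cells of the rule, simulated libraries gave back 1% of genes changed 2-fold and 34% of those changed 4-fold.

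Cells that met the rest of the rule but had at least 1000 and fewer than 2000 detected genes numbered 2739, and 297, 358, 394 and 285 of them per library had 9 or 10 Sertoli genes. Among cells with 9 or 10 Sertoli genes, the deeper cells were higher in every library for the immediate early genes *Egr1* (557, 426, 359 and 556 against 153, 35.8, 78.9 and 80.7 CPM) and *Fos* (mean 394 against 77.2 CPM) and for *Col1a1*, *Col1a2*, *Col3a1* and *Dcn*. They were lower for the meiotic genes *Sycp3* (69.3, 16.4, 71.9 and 47.5 against 187, 47.7, 247 and 134 CPM), *Sycp2* and *Tex15* and for *AY036118* (means 1478 and 3250 CPM). In all, 78 genes were at least 2-fold higher and 1 at least 2-fold lower in every library among 6481. The number of detected genes chose these classes, and depth and class cannot be told apart.

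Cells of 1 library also differed among themselves. After thinning to 4000 UMIs, which left out cells with fewer and kept 2534 of 2553, the variance over the mean of a gene's UMIs, relative to genes of like mean, was highest over all cells for *Col1a1* (plain ratios of 61.7, 121, 49.99 and 86.04), *Col3a1*, *Col1a2*, *Acta2*, *Malat1*, *Apoe* and *Mgp*. Collagens still led in the cells with 9 or 10 Sertoli genes. Of those 1929 cells, 72 had over 20 UMIs of the 3 collagens (8 of 633, 22 of 354, 8 of 298 and 34 of 644 per library). Among the 1809 thinned cells with at most 5, the order changed. *Malat1* and *Gm42418* led, and the genes that came next included the immediate early genes *Fos*, *Atf3*, *Cyr61*, *Btg2* and *Egr1*, the genes of secreted products *Sparc*, *Clu* and *Ctsl*, and *Tmsb4x* and *Cebpd*. For *Clu* the variance was 2.42, 5.10, 4.21 and 4.10 times the mean.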

How the data were processed

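The deposited values are the authors' whole, unnormalized UMI counts, made with Cell Ranger and STAR on mm10 per the submitters' processing notes, for barcodes that Cell Ranger kept as cells. UMIs of the chosen cells were summed per library, and levels are UMIs per 1000000 (CPM). Sums were compared with edgeR 4.0.16 in R 4.3.3 (TMM, filterByExpr, quasi-likelihood test, Benjamini-Hochberg adjustment over all genes tested, 2-sided), by genotype, by library set with genotype as a term, and by the interaction of genotype and class with the library as a block. The test was checked on simulated counts. Cells and gene lists were chosen with earlier results of these data known. The genes named were those of the rule, the marker and pathway lists, up to 8 in each direction by smallest adjusted p with libraries that did not overlap (5 by unadjusted p where fewer than 3 passed), and the leaders in level, difference and variation. No doublet caller was run, and doublets were limited only by the 4500-gene and germ cell limits. DESeq2 1.42.0 and other limits on cells were alternatives. Python 3.11.15 with NumPy 2.4.6, SciPy 1.17.1 and pandas 2.3.3 did the remaining steps. Of the identifiers, 99.6% were in GENCODE vM21. Results for some genes are not reported here.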

Additional observations from a re-analysis of the deposited data

Results flagged for a closer look

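The genotype difference of 8 genes differed between all 2553 cells of the tubule rule and SV Sertoli cells by the interaction test, and with 9 or 10 Sertoli genes required the 6 matrix genes did not pass and the other 2 were too low to be tested (log2 of *Sox17*-cKO over control in the tubule, less the same in the SV, with the adjusted p of edgeR's quasi-likelihood test). The values were -4.63 for *Dcn* (2.8e-07), -2.67 for *Col1a2* (0.0035), -2.09 for *Col3a1* (0.014), -3.48 for *Col6a2* (0.022), -2.65 for *Col6a1* (0.028) and -9.71 for *Lum* (0.028), and 4.92 for *1500015O10Rik* (0.0004) and 10.03 for *Lcn2* (0.029). *Lum* was at 0 in 3 of 4 SV sums and *Lcn2* at 0 in both *Sox17*-cKO SV sums, so these 2 values depend on the prior count and are no bounds. *Lcn2*, an iron-sequestering secreted protein, was at 2.83, 18.8, 34.6 and 12.8 CPM in all cells of the rule, at 0.0, 2.51, 1.56 and 2.71 CPM in those with 9 or 10 Sertoli genes, and at 35.5, 25.4, 0.0 and 0.0 CPM in SV cells (controls 1 and 2, then *Sox17*-cKO 1 and 2). *1500015O10Rik* was at 46.1, 62.8, 134 and 29.8 CPM in all cells of the rule, at 5.73, 23.97, 4.30 and 6.33 CPM in those with 9 or 10, and at 142, 4.23, 0.0 and 2.14 CPM in SV cells, so its SV level stood mostly in control 1. Without control 1 neither gene passed, with values of 0.78 for *1500015O10Rik* and 8.92 for *Lcn2*, and *Lcn2* did not pass without either *Sox17*-cKO library. Matrix gene UMIs in the SV cells stood mostly in *Sox17*-cKO 2 (*Col1a2* at 10.1, 33.9, 12.8 and 179.8 CPM), the library with 48 of the 100 SV cells. Without that library none of the 6 matrix genes passed. With 9 or 10 Sertoli genes required of tubule and SV cells alike, *Snrpa1* differed, at -2.76 (0.014).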

How the results depend on the processing

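Calls between genotypes moved from 0 to 17 without the filter on low counts and ranged from 0 to 13 with each library left out (13 without control 2), and in cells with 9 or 10 Sertoli genes from 0 to 16 and over 0 to 25 (25 without control 1, 19 without control 2). Leaving out a library leaves a group with 1, which is assumed to vary like the other. With the replicate number as a block, the calls stayed at 0 in both, while genes with an unadjusted p under 0.05 went from 43 to 67 and from 89 to 349. Such libraries share a number and a Cell Ranger version, and no source used here says that they were paired. Their deviations from the group means correlated at 0.052 and 0.52. The library set test over all cells called 0, but 27 with DESeq2, 15 without the filter and 658 with 9 or 10 Sertoli genes. The 658 became 143 with at most 3500 detected genes, 1111 with 0 UMIs of *Ddx4* and *Dazl*, 40 below 10% mitochondrial UMIs, 1177 with at most 5 collagen UMIs, 247 with DESeq2, 1609 without the filter and 418 with total UMIs. Leaving out a library was not run there, since with genotype kept it leaves no residual degrees of freedom. The interaction's 8 calls became 0 at 3500 genes and with DESeq2, and 1 with 0 germ cell UMIs, with thinned cells and with 9 or 10 Sertoli genes, and ranged from 1 to 17 with each library left out (17 without *Sox17*-cKO 1, 3 without *Sox17*-cKO 2, 1 without control 1). Its 1 call in the subset became 0 at 3500 genes, with 0 germ cell UMIs, with thinned cells and with DESeq2, and ranged from 0 to 9 (9 without *Sox17*-cKO 2). Leaving out *Sox17*-cKO 2 reversed 6 interaction values, whose ranges over libraries left out were -5.37 to 7.13 for *Dcn*, -3.64 to 1.87 for *Col1a2*, -3.24 to 3.10 for *Col3a1*, -9.15 to 7.05 for *Col6a2*, -10.84 to 0.99 for *Lum* and -9.59 to 8.32 for *Col6a1*. Reversed too were *Col3a1* at 0.36 with 9 or 10 Sertoli genes, *Cited4* at -1.67 at 3500 genes, and, between genotypes with 0 germ cell UMIs, *Crip1* at 0.057 and *Rgs5* at 0.88. The share's difference ranged from -1.57 to 5.74 points with each library left out. Of the 15 most variable genes over all cells of the rule, 9 remained below 10% mitochondrial UMIs. With 9 or 10 Sertoli genes required 10 remained, and 4 with at most 5 collagen UMIs as well. Genes 2-fold higher than in the SV went from 154 to 54 and those 2-fold lower from 91 to 134 with 9 or 10 Sertoli genes required of tubule cells only. Against shallower cells, with that limit on both classes, they went from 14 to 78 higher and from 4 to 1 lower. The cause was not tested. The subset and the collagen limit were chosen after seeing the data. Depth limits most genes: SV sums held 78328 to 467112 UMIs.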
